A study of Mus musculus with 6 samples.

Results

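The genes that flank Fzd4 on mouse chromosome 7 were measured in whole kidneys with and without Fz4, the Wnt and Norrin receptor that Fzd4 encodes. The 48 genes were named from a list of neighbours, 10 that come before Fzd4 and 38 that come after it in the order of the RefSeq annotation. Of these, 43 had at least 1 probe set that the platform annotation gave to the gene alone, which made 98 of the 45101 probe sets on the array. Picalm, Usp35, Pak1, Tsku and Lrrc32 had none and were not analysed here. A filter on low signal left 68 probe sets of 37 members for testing, out of 27022 tested in all. The filter required a mean over the 6 arrays of at least 5.89 log2.

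The samples were whole kidneys of mouse embryos at E13.5, 3 of genotype Fz4-/- and 3 of genotype Fz4+/+. The 3 litters were each sampled once per genotype, and no treatment or second allele was named. RNA was read on Affymetrix MOE430.2 arrays, where short oligonucleotides grouped into a probe set give 1 value, which can come from 1 or several transcripts. The strain in which the Fz4 allele was made, the number of backcrosses and the number of embryos behind each sample are not given in the sources used here. The p-values thus weigh a genotype difference within these 6 samples only, and do not extend to other litters or strains.

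An allele made in embryonic stem cells stays linked to the stretch of chromosome around it when the mice are bred. A homozygous mutant can then carry stem cell strain sequence on both copies of that stretch, while its wild-type littermates carry the sequence of the other parent there. Strain differences in such a stretch can change how much of a neighbouring gene is made, and they can also change how well a short oligonucleotide binds without any change in the transcript. Probe sets of the same gene, which read different parts of it, are for that reason given separately.

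Fzd4 itself was lower in every Fz4-/- sample on both of its tested probe sets. On probe set 1434756_at litters 1 to 3 gave 4.37, 3.58 and 6.22 log2 in Fz4-/- samples and 11.21, 11.12 and 10.31 in Fz4+/+ samples. On 1419301_at they gave 4.33, 4.05 and 5.05 against 7.53, 7.72 and 8.48. The Fzd4 probe set 1449416_at lay far below the filter, with a mean of 3.07 in both genotypes, and did not separate them. In limma the differences of -6.16 on 1434756_at and -3.44 on 1419301_at had unadjusted p of 9.57e-05 and 5.98e-05 but an adjusted p of 0.999988. Of 12 kidney marker genes 11 were measured, all above the filter, and their mean lay between 9.50 and 9.57 in Fz4-/- and between 9.49 and 9.66 in Fz4+/+ samples. The mean of 7 muscle markers ran from 6.21 to 7.64 in Fz4-/- and from 7.57 to 8.27 in Fz4+/+ samples, that of 6 chromaffin markers from 5.38 to 5.86 and from 5.91 to 7.04, and that of 6 liver markers from 6.29 to 7.64 and from 6.57 to 8.18. The part of these other cells in the values of the flanking genes was not tested. The gap between 3' and 5' control signals, a measure of RNA breakdown, was between 0.64 and 0.90 log2 for actin and between 0.75 and 0.90 for Gapdh.

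Whether the neighbours of Fzd4 differ between the genotypes was asked probe set by probe set, in limma's fit over all 27022 tested. Genotype was the only term of that fit, so differences between litters were part of its SEs and p-values. A fit with the litter as a block is given further below. No flanking gene passed the threshold, an adjusted p of 0.05. Over all probe sets 0% passed, and Fzd4 was among those that did not, so the absence of calls says little about its neighbours. At an unadjusted p under 0.05 limma found 1 of the 68 flanking probe sets, or 1.47%, against 0.884% of all. It was a probe set of Saxo2 and was lower in Fz4-/-, where 0.315% of all probe sets were lower and 0.57% higher at that p. The genotypes did not overlap for 3 of the 68, or 4.41%, against 3.64% of all tested probe sets. These 3 were probe sets of Ctsc and Thrsp, lower in Fz4-/-, and Fam181b, higher in Fz4-/-, beside 1.21% lower and 2.42% higher over all. Both shares lie near those of the whole array. Single samples moved these counts. The flanking count at limma's unadjusted p under 0.05 was 3, 0 and 1 when the Fz4-/- sample of litter 1, 2 or 3 was dropped. It was 3, 0 and 4 when the Fz4+/+ sample was dropped. Over all tested probe sets these counts were 404, 124 and 182, and 330, 203 and 1725. The flanking count without overlap was 8, 7 and 4, and 10, 6 and 14, in the same order. There 6.67% to 26% of all probe sets had no overlap.

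The differences had no common direction along the region. Of the 68 probe sets 36 were above 0 and 32 below, with a median of 0.02, while 61.6% of all tested probe sets were above 0 with a median of 0.03. The median absolute difference was 0.108 for the flanking genes and 0.0874 for all. An absolute difference of at least 0.5 log2 was seen in 3 of the 68, or 4.41%, on Saxo2, Nox4 and Sytl2, and in 1.6% of all. Of these, Sytl2 had a mean below the filter level in Fz4-/- samples and passed through its Fz4+/+ samples. Leaving out 1 sample kept the median absolute difference between 0.0964 and 0.143.

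**Figure D1:**
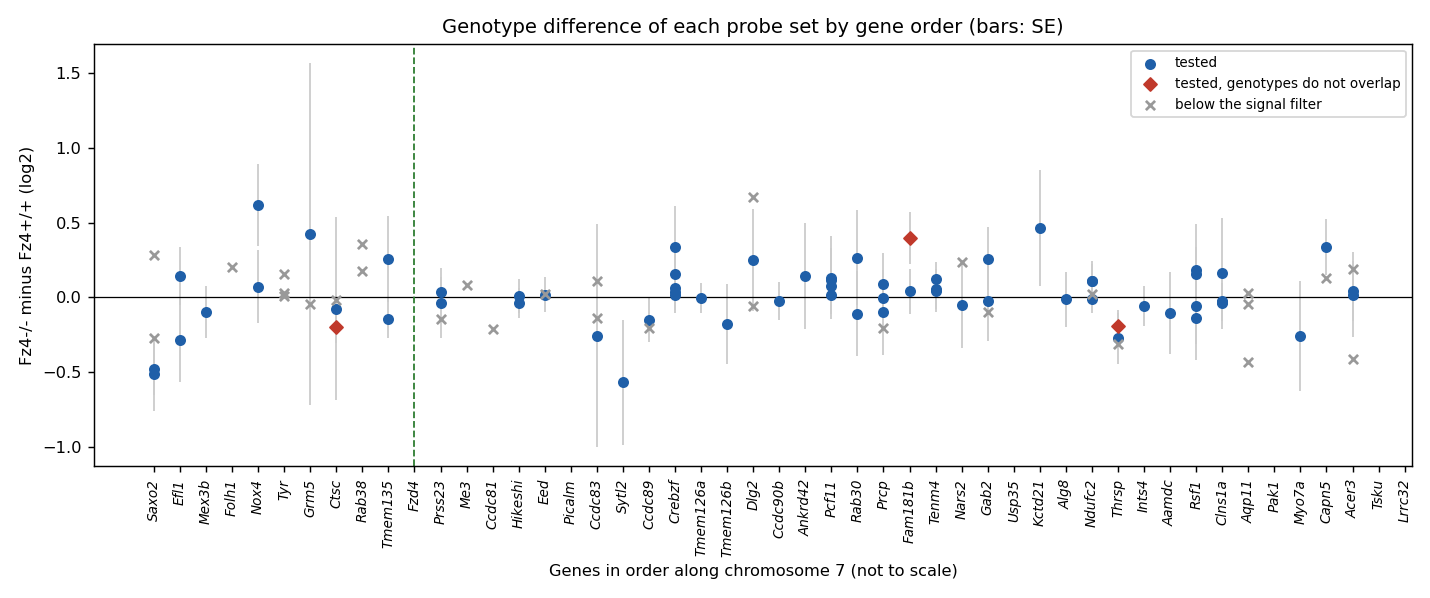
Difference between Fz4-/- and Fz4+/+ kidneys on the log2 scale for each of the 98 flanking probe sets, with genes in order along chromosome 7 and the dashed line at Fzd4. Circles and diamonds are the 68 tested probe sets with the SE from limma, diamonds mark the 3 whose genotypes do not overlap, and crosses are probe sets below the filter; points lie on both sides of 0 on each side of Fzd4.

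No tested probe set of the genes next to Fzd4 on either side separated the genotypes. Tmem135, the last gene before Fzd4, encodes a membrane protein with roles in mitochondria and peroxisomes. On its brighter probe set, 1426435_at, it read 8.30, 8.63 and 8.57 in the Fz4-/- samples of litters 1 to 3 and 8.72, 8.59 and 8.64 in the Fz4+/+ samples. The values of the genotypes overlapped, and the difference of -0.15 ± 0.13 (SE) came mostly from litter 1. On 1452074_at it read 6.73, 6.63 and 7.43 against 6.65, 6.29 and 7.07. That probe set read higher in every Fz4-/- sample than in its littermate, by 0.08, 0.34 and 0.35, so the 2 probe sets of Tmem135 lay on opposite sides of 0. The difference on 1452074_at was 0.26 ± 0.29 (SE). With the litter as a block the SE was 0.11 and limma's unadjusted p 0.0642.

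Prss23, a secreted serine protease, is the first gene after Fzd4. Its probe set 1431057_a_at read 9.23, 9.25 and 9.27 in Fz4-/- and 9.27, 9.14 and 9.22 in Fz4+/+ samples. All 6 samples lay within a narrow band, and the difference was 0.04 ± 0.10 (SE). Its other tested probe set differed by -0.04 ± 0.23. With arrays centred on their median, a scaling that shifts the median of all differences to -0.0212, the value of 1431057_a_at was -0.0152.

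Hikeshi, which carries Hsp70 into the nucleus under heat stress, and Eed, a core subunit of the Polycomb complex that methylates histone H3, follow after Me3 and Ccdc81. The Hikeshi probe set 1419351_a_at read 10.70, 10.77 and 10.70 in Fz4-/- and 10.85, 10.74 and 10.69 in Fz4+/+ samples. Eed read 11.21, 11.17 and 11.34 against 11.24, 11.08 and 11.35 on 1448653_at. Neither gene separated the genotypes, with differences of -0.04 ± 0.10 and 0.02 ± 0.12 (SE). The sign of Eed and of the second Hikeshi probe set turned with arrays centred on their median, to -0.0374 and -0.0449. Me3, a mitochondrial malic enzyme, and Ccdc81, a coiled-coil protein, were below the filter. They differed by 0.08 and -0.21, with overlap in both.

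Before Tmem135 lie Rab38 and Ctsc. Rab38, a small GTPase of melanosome and lysosome-related organelle traffic, was below the filter on both probe sets, which differed by 0.35 and 0.18. Ctsc encodes cathepsin C, a lysosomal protease that removes dipeptides from other proteases. On 1416382_at it read 8.97, 8.98 and 8.98 in Fz4-/- and 9.12, 9.12 and 9.31 in Fz4+/+ samples. All 3 Fz4-/- samples were below all 3 Fz4+/+ samples, in every litter, and the Fz4-/- samples lay very close together. The difference was -0.20 ± 0.10 (SE), with limma's unadjusted p of 0.10 and adjusted p of 0.999988. The exact two-sided permutation p was 0.1, the smallest that 3 against 3 can give. Here and below that permutation ran over all 6 samples and did not keep the litter pairs. On a second probe set, 1446834_at, Ctsc read 7.79, 7.56 and 6.29 in Fz4-/- and 7.79, 7.94 and 6.14 in Fz4+/+ samples. There the litters differed far more than the genotypes, and the difference was -0.07 ± 0.61.

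Further out on that side are Grm5, Tyr, Nox4 and Folh1. Grm5, a metabotropic glutamate receptor of neurons, read 8.31, 6.68 and 6.75 in Fz4-/- and 7.79, 8.44 and 4.25 in Fz4+/+ samples on 1456119_at. It was the most variable flanking gene within litters, with differences of 0.52, -1.76 and 2.50 in litters 1 to 3. The mean difference of 0.42 ± 1.14 (SE) became -0.866 when the litter 3 Fz4+/+ sample was dropped and -0.108 when the litter 1 Fz4-/- sample was dropped. Tyr, the enzyme that starts melanin synthesis, was below the filter on all 3 of its probe sets. On 1448821_at Tyr read 5.74, 5.14 and 3.71 against 6.52, 4.73 and 2.87, lowest in litter 3 of both genotypes. Of 6 melanocyte markers, Tyr among them, 1 was above the filter. Folh1, a carboxypeptidase that releases glutamate, was near background with a difference of 0.20.

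Nox4, an NADPH oxidase that is abundant in kidney tubules, had the largest absolute difference of the tested flanking probe sets. On 1419161_a_at it read 6.37, 6.86 and 6.91 in Fz4-/- and 5.86, 5.80 and 6.64 in Fz4+/+ samples. Each litter was higher in Fz4-/-, by 0.52, 1.06 and 0.27, yet the genotypes overlapped because the litter 3 Fz4+/+ value exceeded the litter 1 Fz4-/- value. The difference was 0.62 ± 0.27 (SE), with limma's unadjusted p of 0.0654 and an exact permutation p of 0.2. The litter block lowered the SE to 0.18, and limma's unadjusted p was then 0.0229 and its adjusted p 0.999986. On the brighter probe set 1451827_a_at Nox4 read 8.91, 8.69 and 8.24 against 8.36, 8.94 and 8.32. That probe set differed by 0.07 ± 0.24, so 0.54 log2 separated the 2 readings of the gene. Among tested probe sets this was the widest gap of any flanking gene. The ending _a_at marks probe sets that can read several transcripts of 1 gene.

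The outermost members before Fzd4 are Mex3b, Efl1 and Saxo2, which lie 53 to 55 protein-coding genes away. Saxo2 encodes a protein that binds the microtubules of cilia. On 1456939_at it read 6.94, 6.43 and 6.52 in Fz4-/- and 6.93, 7.28 and 7.11 in Fz4+/+ samples. Litters 2 and 3 were lower in Fz4-/- with differences of -0.85 and -0.59, whereas litter 1 gave 0.01. The difference was -0.48 ± 0.18 (SE), with limma's unadjusted p of 0.0342, the smallest of the flanking probe sets, and an exact permutation p of 0.2. Under the litter block limma gave an unadjusted p of 0.0629, so this probe set no longer passed 0.05. The probe set 1439963_x_at of Saxo2, whose ending marks oligonucleotides that can bind other transcripts, differed by -0.51 ± 0.25. Of its other probe sets, both below the filter, 1447397_at differed by -0.27 and was likewise lower in litters 2 and 3 but not in litter 1, and 1460107_at, near background, differed by 0.28.

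Efl1, a GTPase that matures the large ribosomal subunit, differed by -0.29 ± 0.28 (SE) on one probe set and 0.14 ± 0.19 on the other. The brighter one read 9.32, 9.22 and 9.70 against 9.10, 9.14 and 9.58 and was higher in Fz4-/- in each litter. Mex3b, an RNA-binding protein, differed by -0.10 ± 0.17.

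**Figure D2:**
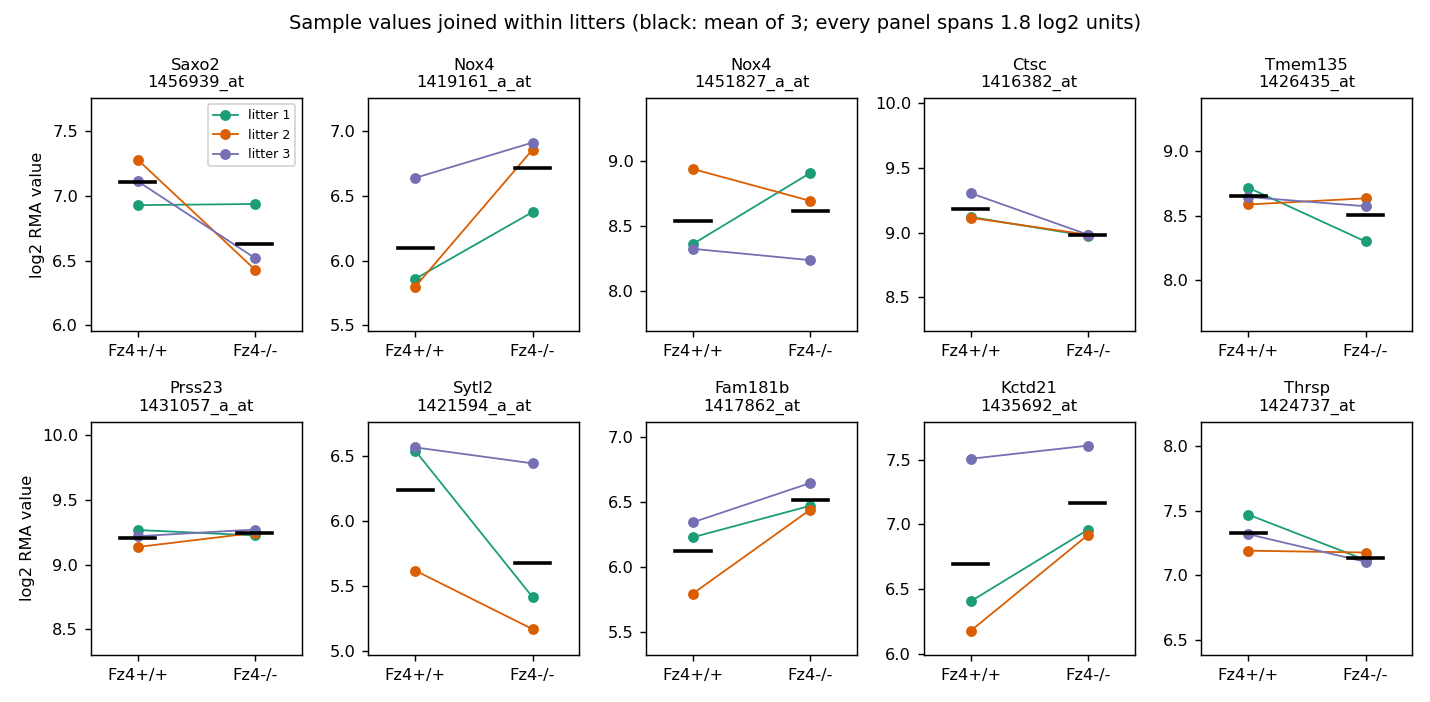
Log2 RMA values of 10 tested probe sets of flanking genes in Fz4+/+ and Fz4-/- samples, with points of the same litter joined and black bars at the mean of 3 samples. In Ctsc, Fam181b and Thrsp the genotypes do not overlap, in Nox4 the 2 probe sets run differently, and in Sytl2 and Kctd21 the litters lie apart while each litter moves the same way.

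After Eed and Picalm the order runs through Ccdc83, Sytl2, Ccdc89 and Crebzf. Sytl2, a Rab27 effector of vesicle transport, read 5.41, 5.17 and 6.44 in Fz4-/- and 6.54, 5.62 and 6.57 in Fz4+/+ samples. It was lower in Fz4-/- in each litter, with differences of -1.13, -0.45 and -0.12 in litters 1 to 3, but the values of the genotypes overlapped. The difference was -0.57 ± 0.42 (SE), with limma's unadjusted p of 0.221. The coiled-coil genes Ccdc83 and Ccdc89 differed by -0.26 ± 0.74 and -0.15 ± 0.15 on their tested probe sets. The Ccdc83 probe set read 5.06 and 5.22 in the 2 genotypes of litter 3, against 6.43 to 7.32 in the other litters. Crebzf, a transcriptional regulator with a leucine zipper, had 5 tested probe sets. Its differences ran from 0.01 to 0.34, and none of the 5 separated the genotypes.

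Tmem126a and Tmem126b are neighbouring paralogs that encode mitochondrial inner membrane proteins, and neither separated the genotypes. Tmem126a read 9.86, 9.93 and 10.04 in Fz4-/- and 9.97, 9.88 and 9.98 in Fz4+/+ samples, a difference of -0.0031 ± 0.10 (SE). Tmem126b, which takes part in the assembly of respiratory complex I, read 7.58, 7.77 and 8.0 against 8.46, 7.47 and 7.94, a difference of -0.18 ± 0.27. For Tmem126b the litter 1 Fz4+/+ sample was the highest of the 6, and leaving litter 1 out gave 0.175.

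The next genes ran from Dlg2 to Fam181b. Dlg2, a scaffold protein of synapses, differed by 0.25 ± 0.34 (SE) on its tested probe set and was higher in Fz4-/- in each litter, by 0.14, 0.33 and 0.28. A second Dlg2 probe set, below the filter, differed by 0.67 and was also higher in each litter, with overlap between the genotypes. Ccdc90b, a mitochondrial protein, and Ankrd42, an ankyrin repeat protein, differed by -0.03 and 0.14. Pcf11, which takes part in the cleavage and ending of pre-mRNAs, had 4 tested probe sets between 0.02 and 0.13. Rab30, a Golgi GTPase, differed by 0.27 and -0.11 on its 2 probe sets, and Prcp, a lysosomal carboxypeptidase that cleaves angiotensin peptides, ran from -0.10 to 0.09 on 3. Fam181b read 6.47, 6.44 and 6.65 in Fz4-/- and 6.23, 5.79 and 6.34 in Fz4+/+ samples on 1417862_at. All 3 Fz4-/- samples were above all 3 Fz4+/+ samples, and each litter was higher, by 0.24, 0.65 and 0.30. The difference was 0.40 ± 0.17 (SE), with limma's unadjusted p of 0.0583 and adjusted p of 0.999988, and an exact permutation p of 0.1. Under the litter block limma gave an unadjusted p of 0.0266. The other probe set of Fam181b differed by 0.04 ± 0.15.

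Among the genes from Tenm4 to Ndufc2, Kctd21 differed most. Tenm4, a teneurin that spans the cell membrane, differed by 0.05 to 0.12 on 3 probe sets. Nars2, the mitochondrial asparaginyl-tRNA synthetase, differed by -0.05 on its tested probe set, and Gab2, an adaptor of receptor tyrosine kinases, by -0.02 and 0.26. Kctd21, which recruits targets to a ubiquitin ligase, read 6.96, 6.92 and 7.61 in Fz4-/- and 6.41, 6.18 and 7.51 in Fz4+/+ samples. Both samples of litter 3 were above all others, and within litters the differences were 0.55, 0.74 and 0.10. The difference of 0.46 had an SE of 0.39 without the litter block and of 0.15 with it, where limma's unadjusted p was 0.0354. Alg8, a glucosyltransferase of N-glycan synthesis, differed by -0.01. Ndufc2, a subunit of respiratory complex I, had values between 12.53 and 12.62 in all 6 samples on 1455036_s_at. Its 3 tested probe sets differed by -0.01 to 0.11.

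Thrsp, a nuclear protein of fatty acid synthesis, was another gene whose genotypes did not overlap. On 1424737_at it read 7.12, 7.18 and 7.10 in Fz4-/- and 7.47, 7.19 and 7.32 in Fz4+/+ samples. The Fz4+/+ sample of litter 2 was just above its Fz4-/- littermate, with a litter difference of -0.01, against -0.35 and -0.21 in litters 1 and 3. The difference was -0.19 ± 0.11 (SE), with limma's unadjusted p of 0.136 and an exact permutation p of 0.1. The other tested probe set of Thrsp differed by -0.27 ± 0.17 and the one below the filter by -0.31, so all 3 were below 0.

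The genes farthest after Fzd4 differed in both directions. Ints4, of the Integrator complex that processes small nuclear RNAs, differed by -0.06, and Aamdc by -0.11. Rsf1, a histone-binding subunit of a chromatin remodeller, ran from -0.14 to 0.18 on 4 probe sets, and Clns1a, which takes part in the assembly of spliceosomal particles, from -0.04 to 0.16 on 4. Aqp11, an intracellular aquaporin whose loss gives cystic kidneys in mice, was below the filter on all 3 probe sets. On its probe set 1455846_at it read 5.46, 5.01 and 4.61 in Fz4-/- and 5.49, 5.70 and 5.18 in Fz4+/+ samples, lower in each litter but with overlap. Myo7a, an unconventional myosin, differed by -0.26 ± 0.37 (SE), and Acer3, an alkaline ceramidase, by 0.02 and 0.04 on its tested probe sets. Capn5, a calpain protease, differed by 0.34 ± 0.19 on 1418671_at. It was higher in Fz4-/- in each litter, by 0.07, 0.83 and 0.11.

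The median absolute difference was larger before Fzd4 than after it, but not at every signal level. The 12 tested probe sets before Fzd4, from 7 genes, had a median absolute difference of 0.229, and the 56 after it, from 30 genes, one of 0.0930. This compares with 0.0874 over all tested probe sets. The members before Fzd4 were also dimmer, with a median level of 7.14 against 8.19 after it and 8.46 over all. Over all probe sets the median absolute difference was 0.147 below a level of 7, 0.112 between 7 and 9, and 0.0553 at 9 and over. The 5 probe sets before Fzd4 with a level below 7 had a median of 0.477, the 4 between 7 and 9 one of 0.110 and the 3 at 9 and over one of 0.142. After Fzd4 the medians were 0.267 over 11 probe sets, 0.136 over 20 and 0.0369 over 25, so between 7 and 9 the side after Fzd4 had the larger one. The lowest difference was also after Fzd4, on Sytl2, whose mean in Fz4-/- samples lay below the filter level. The median before Fzd4 was 0.344 when the litter 3 Fz4+/+ sample was dropped and 0.137 when each gene entered once, as the average of its probe sets. These are descriptions of a few genes, and no test of the sides was made.

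The size of the difference did not follow the distance from Fzd4. Over the 37 tested members the rank correlation between the number of protein-coding genes to Fzd4 and the largest absolute difference of the gene was 0.04. It was 0.32 over the 7 members before Fzd4 and 0.16 over the 30 after it. These correlations are across genes of the same 6 samples and are given as descriptions. Of the 10 members that come first after Fzd4, 7 had tested probe sets, 13 in all, of which 5 were of Crebzf. These 13 had a median absolute difference of 0.0395, which is lower than that of all probe sets. Their median level, 9.23, was higher. The members further out after Fzd4 had 43 tested probe sets with a median absolute difference of 0.106. The median level of those was 8.12.

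Other genes that lie between the outermost members showed little as well. They comprised 18 tested probe sets of 11 genes, among them Arnt2, Fah, Zfand6, Abhd17c and Ddias. None of the 18 had an unadjusted p under 0.05 or values without overlap, with 8 above 0 and a median absolute difference of 0.0665. Their largest absolute difference was 0.297. The remaining 1384 tested probe sets of chromosome 7 had a median absolute difference of 0.0884, and the genotypes did not overlap for 3.25% of them.

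Probe sets of the same gene were then compared with each other, since a sequence change under 1 probe set would move it apart from the rest. For 19 flanking genes 2 or more probe sets were tested. The highest and lowest difference of a gene lay a median of 0.186 log2 apart, against 0.142 over 5802 genes of the array with 2 or more tested probe sets. With 2 probe sets the median gap was 0.203 in 12 flanking genes and 0.101 in 3311 genes. With 3 it was 0.121 in 3 flanking genes and 0.174 in all, and with 4 it was 0.199 in 3 flanking genes and 0.212 in all. A gap of 0.5 or more occurred in 1 flanking gene, Nox4, or 5.26%, against 3.84% of all. The probe sets lay on opposite sides of 0 in 10 of the 19 genes, or 52.6%, against 51% of all. That share rises with the number of probe sets. With 2 it was 6 of 12 flanking genes against 38.3% of all, and with 3 it was 2 of 3 against 61.5%. With 4 it was 2 of 3 against 71.9%, and with 5 it was 0 of 1 against 82.7%. Efl1, Tmem135, Rab30 and Rsf1 were among the 10, whereas Saxo2, Crebzf, Pcf11, Tenm4 and Thrsp had all tested probe sets on 1 side. In 14 of the 19 genes, or 73.7%, the dimmest tested probe set had the largest absolute difference, which was so in 54.6% of all genes. The oligonucleotide sequences of the probe sets were not used here, so which of them cover strain variants was not tested.

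**Figure D3:**
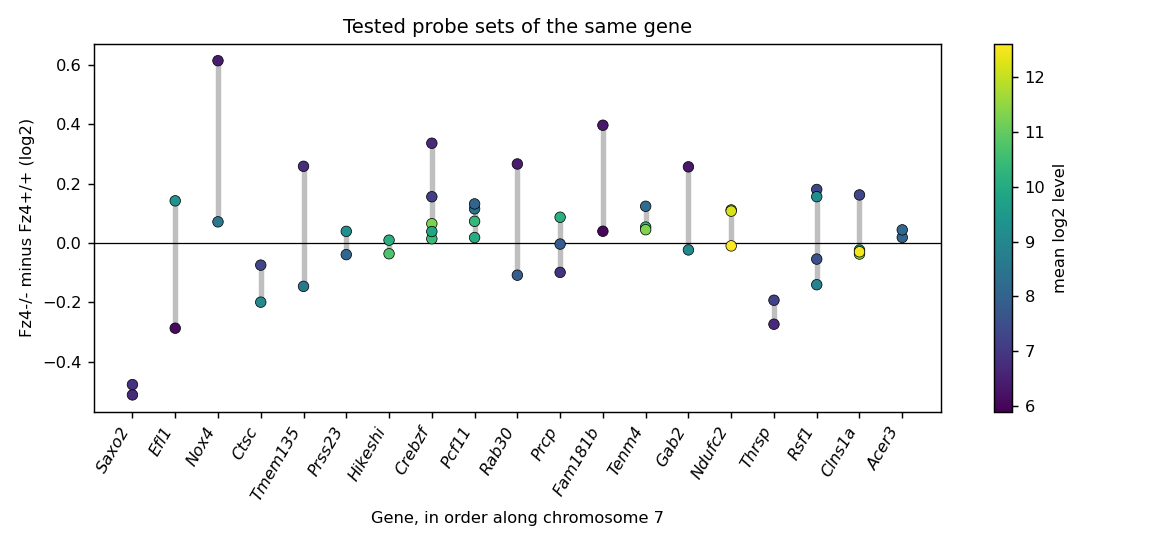
Genotype difference on the log2 scale of the tested probe sets of the 19 flanking genes with 2 or more, in order along chromosome 7, coloured by mean log2 level, with grey bars from the lowest to the highest. The Nox4 probe sets lie farthest apart, and the dim probe sets, in dark colours, lie farther from 0 than the bright ones in most genes.

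Within litters the flanking genes moved both ways in each litter. Of 68 probe sets 31 were above 0 in litter 1, 44 in litter 2 and 36 in litter 3. The median difference was -0.02 in litter 1, 0.08 in litter 2 and 0.01 in litter 3, beside -0.0066, 0.12 and -0.0003 for all tested probe sets. The median absolute difference was 0.191, 0.233 and 0.122 in litters 1 to 3, beside 0.134, 0.207 and 0.126 for all. The direction was the same in all 3 litters for 16 of the 68, or 23.5%, against 21.5% of all. Of these 12 were higher and 4 lower in Fz4-/-, where 14.2% and 7.28% of all were. Tmem135, Nox4, Dlg2, Rab30, Fam181b and Kctd21 were among the higher ones, and Ctsc, Sytl2, Thrsp and Clns1a were the lower ones.

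With the litter as a block, limma found 3 of the 68 at an unadjusted p under 0.05, or 4.41%, against 3.11% of all. These were Nox4, Fam181b and Kctd21, all higher in Fz4-/-, where 2.24% of all probe sets were higher and 0.87% lower at that p. None had an adjusted p below 0.999986.

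Litter 1 held the largest excess of lower values among flanking genes. There 7 of the 68 probe sets, or 10.3%, were lower in Fz4-/- by at least 0.5 log2, against 3.14% of all. They belong to Sytl2, Tmem126b, Aamdc, Rsf1, Myo7a and, with 2 probe sets, Acer3, all after Fzd4, where 56 of the 68 lie. These genes were singled out after their values were seen. Aamdc read 8.80, 8.99 and 9.36 in Fz4-/- and 9.52, 8.62 and 9.34 in Fz4+/+ samples. Myo7a read 7.53, 6.93 and 7.68 against 8.34, 7.07 and 7.52, and the Rsf1 probe set 1457751_at read 7.52, 7.61 and 7.46 against 8.43, 7.03 and 7.29. For Tmem126b, Aamdc and this probe set of Rsf1 the highest and the lowest of the 6 samples were both Fz4+/+, from litters 1 and 2. In litter 1 also 6 of the 68, or 8.82%, were higher by at least 0.5, against 2.65% of all. In litter 2 the shares were 8.82% lower and 13.2% higher, against 6.62% and 11.9% of all, and in litter 3 they were 5.88% and 4.41% against 2.65% and 4.35%.

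**Figure D4:**
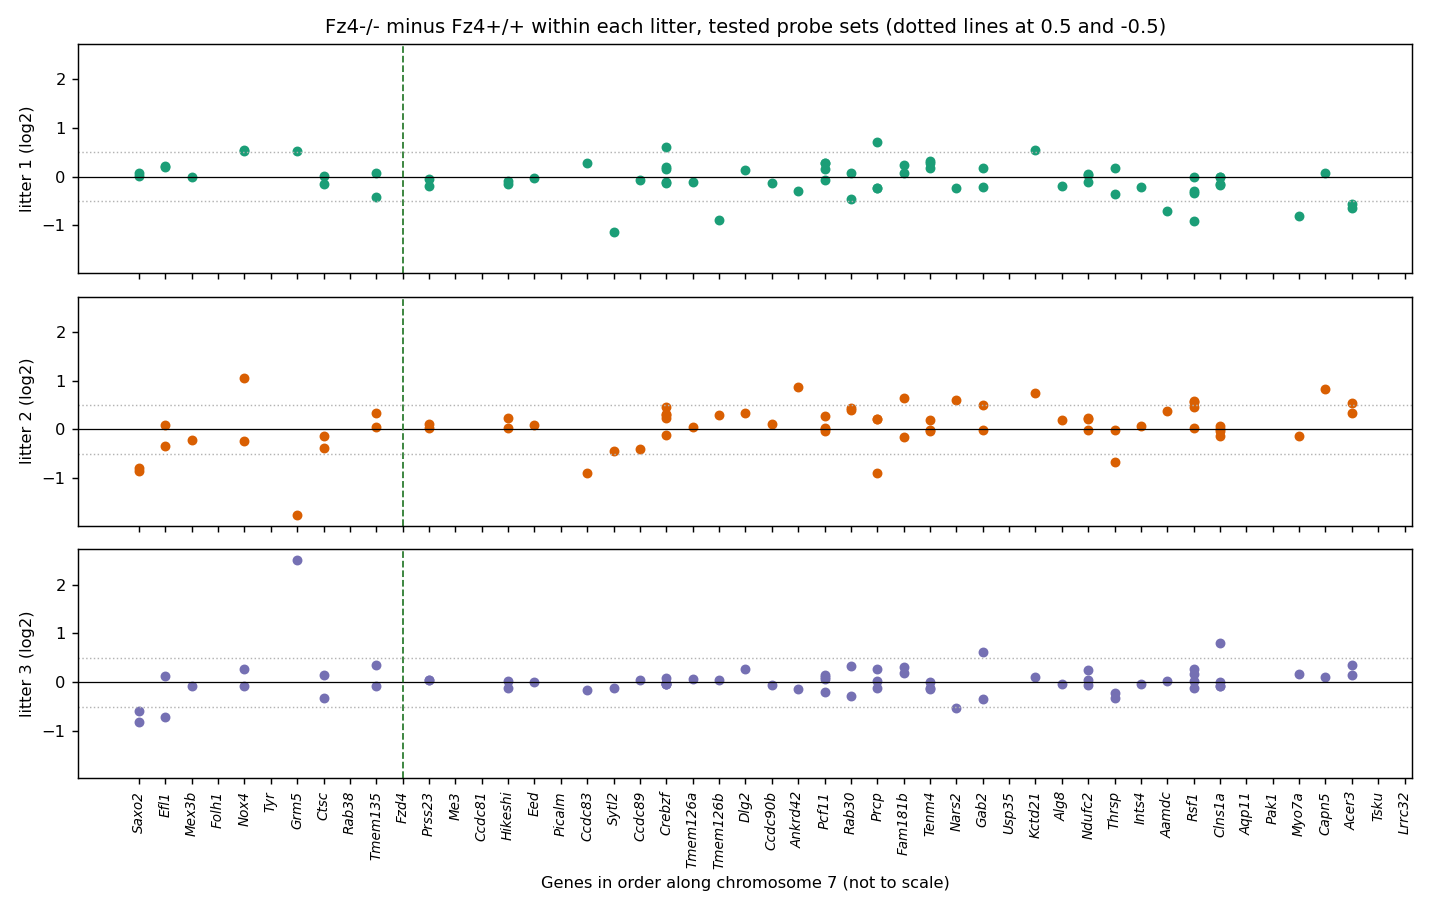
Fz4-/- minus Fz4+/+ on the log2 scale within each litter for the 68 tested flanking probe sets, with genes in order along chromosome 7 and the dashed line at Fzd4. In litter 1 the 7 points at -0.5 or lower all lie after Fzd4, as do 56 of the 68 probe sets. Grm5 runs from -1.76 in litter 2 to 2.50 in litter 3.

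The 30 flanking probe sets below the filter had means between 2.99 and 5.81 log2, where RMA compresses differences. Their differences ran from -0.43, on Aqp11, to 0.67, on Dlg2. The genotypes did not overlap for 2 of them, or 6.67%, against 5.96% of all 18015 probe sets below the filter. Nars2 read 5.52, 5.46 and 5.73 in Fz4-/- and 5.18, 5.36 and 5.46 in Fz4+/+ samples. Acer3 read 4.90, 4.65 and 4.49 against 4.94, 5.27 and 5.06 on 1459771_x_at.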

How the data were processed

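Whole kidneys of mouse embryos, 3 Fz4-/- and 3 Fz4+/+ samples from 3 litters, were profiled on Affymetrix MOE430.2 arrays. RMA is named, without a version, in the submitters' processing notes, and the authors deposited log2 values per probe set, between 2.22 and 14.79. RMA makes the arrays' distributions nearly equal and compresses differences near background. The values were used as deposited. Detection calls, which need the scans, were not made, and 6 arrays limit the precision.

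The platform annotation gave 1 gene to 34958 probe sets, several to 932 and none to 9211. Entrez numbers of 34754 matched RefSeq genes of GRCm38.p6, with 0 symbols changed, and that assembly gave the order of the genes only. After 64 control probe sets were left out, those with a mean at or above the 40th percentile were tested.

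Genotype differences were fitted in limma 3.58.1 under R 4.3.3 (two-sided, Benjamini-Hochberg over all tested probe sets), with genotype as the only term. Single values were compared by exact permutation over the 6 samples, without regard to the litter pairs. Differences are Fz4-/- minus Fz4+/+. The members and marker lists were chosen with earlier results of these data known, so lists are described by counts and medians, with no test. The fit was tested on simulated data that had no litter effect. The differences planted there were larger than any mean difference of the flanking genes, so it does not cover differences as small as theirs. Named probe sets were Fzd4 and tested ones with no overlap or limma's unadjusted p under 0.05 (up to 15). So were the 5 members nearest to Fzd4 on each side and genes whose tested probe sets lay 0.5 or more apart. The brightest and dimmest probe sets, Tmem126a and Tmem126b were named too. Other members are named to account for all.

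Replicate numbers are litter numbers in the labels and so pair the samples. Within litters 1 to 3 the departures of both samples from their genotype mean correlated by 0.577, 0.178 and 0.809. The litter 1 Fz4-/- sample correlated somewhat more with the litter 2 Fz4+/+ sample, by 0.609, than with its littermate.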

Additional observations from a re-analysis of the deposited data

How the results depend on the processing

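No flanking probe set had an adjusted p under 0.05 in limma under any alternative, each of which changed 1 choice. The tested probe sets at an unadjusted p under 0.05, 239 of 27022, numbered 531 without the filter, 141 with a filter at the 60th percentile, 841 with the litter as a replicate block, 940 with the litter as a random effect, 415 without variance moderation and 6084 with array weights. They numbered 81 without litter 2, 1102 without litter 3, 121 with the brightest probe set of a gene and 116 with the average over a gene. Dropping 1 sample gave 124 to 1725. Array weights gave 2 calls over all probe sets and a median absolute difference over all of 0.137; dropping 1 sample gave 0.0860 to 0.158. The litter block, which pairs the samples, gave no call at an adjusted p under 0.05.

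The flanking count at that p was 1 of 68, and counts over all tested probe sets follow in brackets (239 of 27022). It was 2 of 98 without the filter (531), 0 of 44 at the 60th percentile (141) and 2 after quantile normalization (314). Arrays centred on their median gave 4 (311) and the litter block gave 3 (841). The random effect gave 5 (940) and array weights gave 18 (6084). With the average over a gene it was 3 of 37 (116). It was 3 without litter 1 (262), 0 without litter 2 (81) and 3 without litter 3 (1102). Dropping 1 sample gave 0 to 4 (124 to 1725). The flanking count without overlap, 3, was 5 without the filter (4.57% of all probe sets had no overlap there), 1 at the 60th percentile (3.5%), 5 with centred arrays (4.46%), 16 without litter 1 (20.6%), 10 without litter 2 (12.4%) and 15 without litter 3 (32%). Dropping 1 sample gave 4 to 14, where 6.67% to 26% of all probe sets had no overlap; fewer samples overlap less often by construction. The flanking median difference was -0.0388 with centred arrays. The median absolute difference before Fzd4 was 0.137 with the average over a gene and 0.221 to 0.344 with 1 sample dropped.

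Of 17 probe sets followed under each alternative that kept them, those of Saxo2, Ctsc (1416382_at), Fam181b, Thrsp, Tmem135 (both) and Nox4 (1419161_a_at) kept their sign. The others turned, and the cause was not tested. Quantile normalization gave -0.0145 for Hikeshi 1419352_at. Centred arrays gave -0.0152 for Prss23 1431057_a_at, -0.0449 for Hikeshi 1419352_at and -0.0374 for Eed. Array weights gave -0.880 for Grm5, -0.0011 for Prss23 1431057_a_at, 0.0503 for Prss23 1437671_x_at and -0.0421 for Eed. Without litter 1 the values were -0.167 for Nox4 1451827_a_at, 0.0385 for Prss23 1437671_x_at, 0.0211 for Hikeshi 1419351_a_at, 0.0529 for Tmem126a and 0.175 for Tmem126b. Without litter 2 they were 0.0765 for Ctsc 1446834_at, -0.103 for Hikeshi 1419352_at and -0.0183 for Eed, and without litter 3 -0.620 for Grm5. Dropping 1 sample gave -0.0764 to 0.271 for Nox4 1451827_a_at, -0.866 to 1.23 for Grm5, -0.649 to 0.389 for Ctsc 1446834_at, -0.239 to 0.130 for Prss23 1437671_x_at, -0.0706 to 0.00776 for Hikeshi 1419351_a_at, -0.0476 to 0.0420 for Hikeshi 1419352_at, -0.0536 to 0.0802 for Eed, -0.0519 to 0.0386 for Tmem126a and -0.423 to 0.0739 for Tmem126b.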
